A study of Mus musculus with 28 samples.

Results

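The removal of Hnf4a from mouse medullary thymic epithelial cells that already lacked Hnf4g was examined across all genes in the sorted subset mTEClo. The members were the 7 libraries chosen by genotype from 28 in the series: 4 double-mutant libraries (Foxn1cre +/-, Hnf4a fl/fl, Hnf4g -/-) and 3 Hnf4g-null libraries (Foxn1cre +/-, Hnf4a fl/+, Hnf4g -/-). Both groups therefore lacked Hnf4g in the whole animal and carried the Cre, and the Hnf4g-null cells kept 1 allele of Hnf4a that the Cre could not cut. Foxn1 drives the Cre in thymic epithelium, so the removal covered this lineage and not mTEClo alone. The other mTEClo genotypes, used for the spread between libraries and for an interaction test, were Hnf4a-removed (Hnf4a fl/fl, Hnf4g +/-, n = 3) and control (Hnf4a fl/+, Hnf4g +/-, n = 4), both with the same Cre. Double-mutant (n = 4) and control (n = 4) mTEChi served as a second subset, and all mice were C57BL/6. The labels number the thymi without saying whether each is its own mouse, so every p-value below rests on the variation among these libraries, part of which may be technical.

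HNF4A and HNF4G are closely related nuclear receptors that bind the same DNA element and drive enterocyte and hepatocyte genes in gut and liver. Medullary thymic epithelial cells transcribe genes of many peripheral tissues and show their products to developing T cells. Part of this comes from the regulator Aire in mTEChi, and part from later mTECs in the mTEClo gate that resemble gut, tuft, skin or other cells. The comparison asks what the remaining allele of Hnf4a does in such cells once Hnf4g is gone.

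Total counts were 6752094 to 7599304 per library in double-mutant mTEClo and 5504278 to 7112967 in Hnf4g-null mTEClo. Values below are CPM, counts scaled to a library total of 1000000, after adjustment by TMM, a normalisation that assumes that most genes are equal between libraries. Aire stood at 146 to 228 CPM in double-mutant and 169 to 719 CPM in Hnf4g-null mTEClo, and at 1376 to 2290 CPM in the 8 mTEChi libraries, which were scaled separately. Hnf4g-null replicate 1 stood apart from its group. It had an Aire level of 169 CPM against 719 and 644 CPM in replicates 2 and 3, and the lowest median correlation with its own group, 0.926, against 0.933 and 0.938 in the others. Its share of counts in the gene model Gm10800 was also the highest of its group, at 2.74%, against 1.56 and 0.625% in replicates 2 and 3. For the ribosomal protein, Aire-stage and proliferation genes the count called is also given without replicate 1.

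The targeted genes gave no check of the genotypes. Hnf4a (chromosome 2, 163506808 to 163572910 on GRCm38, forward strand) had 3.01, 3.10, 2.25 and 4.31 CPM in double-mutant libraries, against 3.71, 4.07 and 2.38 CPM in Hnf4g-null libraries. The groups overlapped, with a log2 fold change of -0.09 ± 0.45 (SE, edgeR adjusted p = 0.968). Hnf4g (chromosome 3) had 4.52, 3.24, 4.77 and 8.47 CPM in double-mutant libraries, against 9.09, 7.61 and 7.85 CPM in Hnf4g-null libraries (edgeR adjusted p = 0.52). Both genes were near the lower limit of measurement, the deleted parts are not given in the labels, and counts over a whole gene include exons outside the deletion. An antisense gene also overlaps Hnf4a, and the library kit does not mark strand.

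Among 18775 genes tested with edgeR's quasi-likelihood test, 1 gene rose and 1 gene fell in double-mutant against Hnf4g-null mTEClo at a Benjamini-Hochberg adjusted p under 0.05, which is 0.00533% of the genes in each direction. The gene that rose was Serinc3 and the gene that fell was Rps12. At an unadjusted p under 0.05 there were 859 higher (4.58%) and 1080 lower genes (5.75%), and 5.02% and 4.03% of all genes were higher and lower without overlap between the groups' libraries (9.05% in all). The median log2 fold change over all genes was -0.01, and 51% of genes lay below 0. Without Hnf4g-null replicate 1 the same test called 4 genes higher and 115 lower.

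Serinc3 was about 2-fold higher in double-mutant than in Hnf4g-null mTEClo. It encodes a membrane protein of the serine incorporator family with many membrane spans, a family of which SERINC3 and SERINC5 are known to restrict retroviral infectivity. Its levels were 336, 315, 337 and 291 CPM in double-mutant mTEClo, against 166, 160.4 and 146 CPM in Hnf4g-null mTEClo. Every double-mutant library was above every Hnf4g-null library, and the spread within each group was small beside the gap. The log2 fold change was 1.02 ± 0.10 (SE), a fold of 2.03, with an edgeR adjusted p of 0.0004. It was called under all 16 alternatives tried, with log2 fold changes of 0.97 to 1.06.

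**Figure D1:**
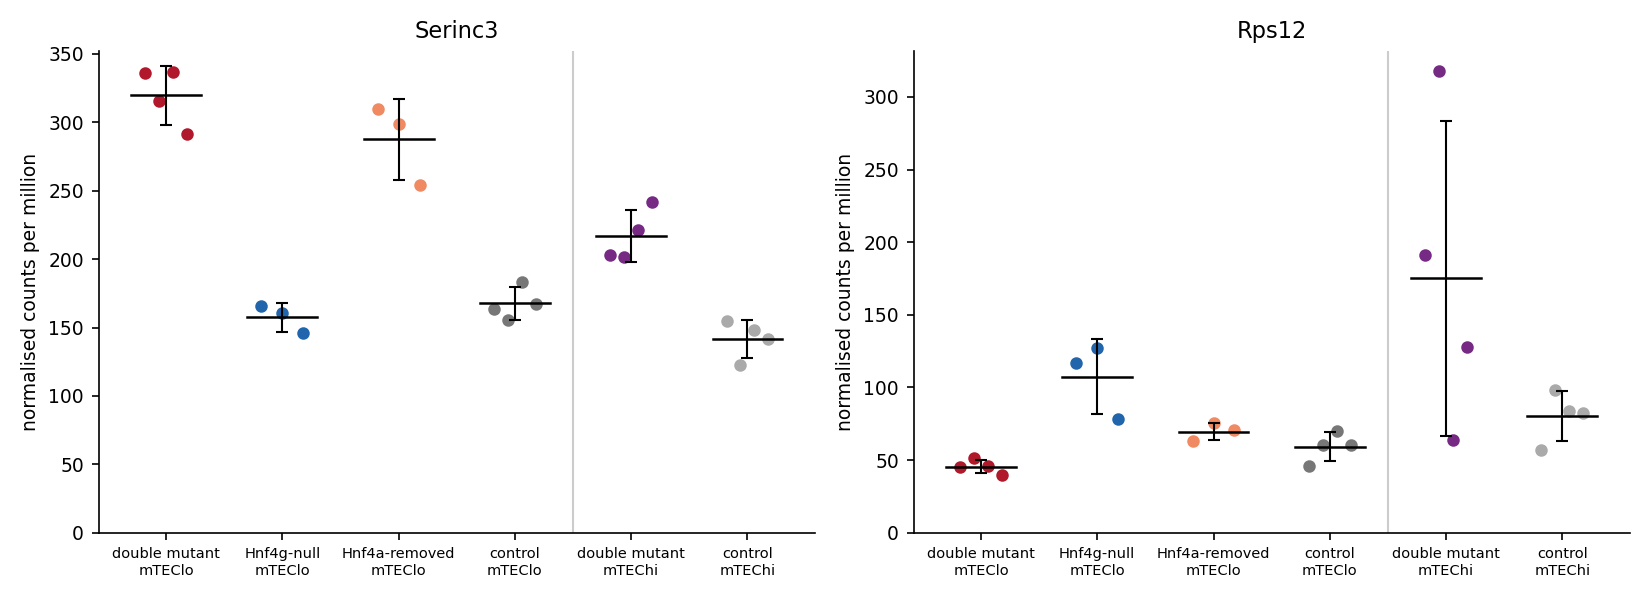
Normalised CPM of Serinc3 (left) and Rps12 (right) in each library of the 4 mTEClo genotypes and, to the right of the grey line, of the mTEChi genotypes, which were scaled separately. Points are libraries, horizontal lines means and error bars SD; the double-mutant mTEClo libraries lie between 291 and 337 CPM for Serinc3 and between 39.8 and 51.3 CPM for Rps12.

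The same gene differed between the genotypes that kept 1 allele of Hnf4g. Serinc3 had 310, 299 and 254 CPM in Hnf4a-removed mTEClo, against 164, 155, 183 and 167 CPM in control mTEClo. These groups did not overlap either, with a log2 fold change of 0.78 ± 0.10 (SE, edgeR adjusted p = 0.0097). These 7 libraries share none with the double-mutant comparison. The difference between the effects of Hnf4a removal in the absence and presence of an Hnf4g allele was 0.24 ± 0.14 on the log2 scale and did not pass the test (edgeR adjusted p = 0.711). In mTEChi, Serinc3 had 203, 202, 221 and 242 CPM in double-mutant libraries, against 155, 123, 148 and 142 CPM in control libraries, a log2 fold change of 0.61 ± 0.11 (edgeR adjusted p = 0.0255).

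Serinc3 lies on chromosome 2 (163623272 to 163645131, reverse strand), next but 1 to Hnf4a itself, with Ttpal, a relative of the tocopherol transfer protein, between them. Its annotated start overlaps an antisense gene model, whose reads cannot be told apart from its own where they overlap. Ttpal had 48.8, 46.9, 48.3 and 43.7 CPM in double-mutant mTEClo, against 44.3, 51.3 and 30.8 CPM in Hnf4g-null mTEClo. These values overlapped, and Ttpal was not called (edgeR adjusted p = 0.843). Of 70 annotated genes within 1 Mb of Hnf4a that the table lists, 30 were tested. Serinc3 was the only one of them called, 17 of the 30 lay below 0, and the share called among all genes was 0.0107% in either direction. In each comparison above, in mTEClo and in mTEChi, the group with more Serinc3 was Hnf4a fl/fl and the reference Hnf4a fl/+. For Serinc3, loss of Hnf4a and homozygosity for the floxed allele with the sequence linked to it therefore cannot be told apart.

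The neighbours closest to the threshold were lower. Sdc4, a cell surface heparan sulfate proteoglycan, had 376, 643, 464 and 386 CPM in double-mutant mTEClo, against 856, 855 and 878 CPM in Hnf4g-null mTEClo. The groups did not overlap, but the log2 fold change of -0.88 ± 0.18 missed the threshold (edgeR adjusted p = 0.093). Wfdc2, a secreted protein with a protease inhibitor fold, had 180.2, 228, 183 and 120.0 CPM in double-mutant libraries, against 325, 367 and 259 CPM in Hnf4g-null libraries (log2 fold change -0.83 ± 0.19, edgeR adjusted p = 0.143). Pkig, an inhibitor of protein kinase A, and Tomm34, a co-chaperone of mitochondrial import, were also lower without overlap (log2 fold changes -0.59 and -0.29), and Ift52, a part of the intraflagellar transport machinery, and the kinase gene Sgk2 were higher without overlap (0.31 and 0.79). None of these 4 passed the test. Of the 30 tested neighbours, 3 were higher without overlap, Serinc3 among them, and 5 were lower. Over all genes the shares were 5.02% and 4.03%.

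Other serine incorporator genes did not pass the test. Of the family, 4 of 5 genes were tested. Serinc1 had 192, 185, 201 and 204 CPM in double-mutant mTEClo, against 175, 164 and 224 CPM in Hnf4g-null mTEClo (edgeR adjusted p = 0.907). Serinc2 and Serinc5 had log2 fold changes of -0.12 ± 0.13 and -0.22 ± 0.18 (edgeR adjusted p = 0.822 and 0.747). Both groups' libraries overlapped for these 3 genes.

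The stretch upstream of the first listed Serinc3 start is shown because HNF4 proteins bind a known element and Serinc3 rose in each comparison with Hnf4a removed. It is the 250 bases before the start on the reverse strand (chr2:163645144-163645393, RefSeq on GRCm38.p6). Neither CAAAGTCCA nor CAAAGGTCA, forms of the element, was found on either strand, against 0.381% and 0.407% of 27025 promoters of the same length that hold them, so no base is in capitals.
Serinc3 upstream: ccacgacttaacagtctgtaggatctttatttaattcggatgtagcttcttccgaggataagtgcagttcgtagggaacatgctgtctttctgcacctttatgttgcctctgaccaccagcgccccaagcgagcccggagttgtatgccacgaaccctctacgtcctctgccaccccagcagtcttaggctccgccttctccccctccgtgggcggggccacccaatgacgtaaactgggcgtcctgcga

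Rps12, which encodes a protein of the small ribosomal subunit, fell. It had 45.2, 51.3, 45.7 and 39.8 CPM in double-mutant mTEClo, against 117, 127 and 78.3 CPM in Hnf4g-null mTEClo. The double-mutant libraries lay close together and all below the lowest Hnf4g-null library, which was replicate 3. The log2 fold change was -1.24 ± 0.17 (SE), so the level in Hnf4g-null cells was 2.36 times that in double mutants, with an edgeR adjusted p of 0.0134. The call was lost (edgeR adjusted p of up to 0.15) when the 7 libraries were fitted alone and when Hnf4g-null replicate 2 or double-mutant replicate 1, 3 or 4 was left out.

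Rps12 lies on chromosome 10 (23785183 to 23787275, reverse strand). Its many processed pseudogenes can take up or lose reads, so its count is uncertain. The table lists 24 Rps12 pseudogenes, which together held 3 to 27 reads in double-mutant libraries, where Rps12 itself had 268 to 348, and 13 to 25 reads in Hnf4g-null libraries, where Rps12 had 558 to 720. The pseudogene reads were far below those of the gene in both groups, and their part in the fall was not tested further.

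The Hnf4g-null libraries were high for Rps12 among the mTEClo genotypes. Hnf4a-removed mTEClo had 63.2, 75.2 and 70.6 CPM, and control mTEClo had 46.1, 60.2, 70.3 and 60.2 CPM, so the range of the control libraries overlapped that of the double mutants. Between these groups Rps12 differed by 0.24 ± 0.17 on the log2 scale (edgeR adjusted p = 0.885). The difference between the effects of Hnf4a removal in the absence and presence of an Hnf4g allele was -1.47 ± 0.23 and did not pass the test over all genes (edgeR adjusted p = 0.106). In mTEChi the sign was the opposite, with 191, 318, 63.8 and 128 CPM in double-mutant libraries, against 56.9, 98.1, 84.0 and 82.1 CPM in control libraries, but the groups overlapped and the log2 fold change of 1.12 ± 0.37 missed the threshold (edgeR adjusted p = 0.258).

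Rps12 did not stand alone among the cytosolic ribosomal protein genes. The ribosome is built from a small and a large subunit whose proteins are needed in equal numbers, and many of their mRNAs begin with a run of pyrimidines, the TOP tract, through which the kinase mTOR controls their translation. The list held 85 genes, of which 82 were tested. A single gene of the list, Rps12, was called lower (the share of all genes was 0.00533%), and none was called higher. Yet 80 of the 82 lay below 0, against 51% of all genes, and 68 had an unadjusted p under 0.05 on the lower side, against 5.75% of all genes. Libraries of the double mutants lay below all Hnf4g-null libraries for 58 of the 82, against 4.03% of all genes. The median log2 fold change was -0.37, against -0.01 over all genes. The genes were measured in the same 7 libraries and are not independent of each other. The number of the list called lower moved both ways with the processing. It was 0 in the fit of the 7 libraries alone and without Hnf4g-null replicate 2 or double-mutant replicate 1, 3 or 4, and 2 with the replicate block. It was 16 of 115 lower calls without Hnf4g-null replicate 1, 10 of 12 with RLE in place of TMM scaling, 12 of 15 with a stricter filter on low counts and 43 of 111 with DESeq2. With no filter on low counts it was 23 of 405, or 5.68% of the lower calls.

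Both subunits were represented. All 33 tested genes of the small subunit lay below 0 (median -0.38), and 47 of 49 of the large subunit did (median -0.36). After Rps12, the next 7 ribosomal protein genes all had an edgeR adjusted p of 0.0508, just outside the threshold. Rpsa, a small subunit protein also known as the laminin receptor, had 122, 149, 133 and 100.3 CPM in double-mutant mTEClo, against 219, 256 and 201 CPM in Hnf4g-null mTEClo (log2 fold change -0.84 ± 0.15). Rplp1 and Rplp2, the acidic proteins of the stalk that recruits elongation factors, had log2 fold changes of -0.74 ± 0.12 and -0.78 ± 0.13. Rplp1 had 186, 224, 195 and 174 CPM in double mutants, against 342, 334 and 299 CPM in Hnf4g-null libraries. Rpl12, which sits at the base of this stalk, had a log2 fold change of -0.73 ± 0.12, with 83.8, 87.1, 85.0 and 69.7 CPM in double mutants, against 133, 146 and 125 CPM in Hnf4g-null libraries.

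Rps21 and Rpl39 were also among these 7, with log2 fold changes of -0.73 and -0.71. Rps20 and Rpl36 followed at an edgeR adjusted p of 0.0569. In each of these named genes the groups did not overlap, but they were named for their small adjusted p, so this is no separate evidence. At the other end of the list, Rpl3 was at 617, 490, 578 and 567 CPM in double-mutant mTEClo, against 490, 513 and 686 CPM in Hnf4g-null mTEClo, a log2 fold change of 0.00 ± 0.11. Rpl22l1 lay above 0 (log2 fold change 0.02) and did not pass the test. The genes Rpl10l, Rpl39l and Rpl3l did not pass the filter on low counts. Many of these genes have near-identical pseudogenes, so single values are uncertain to the extent that reads were shared with them.

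**Figure D2:**
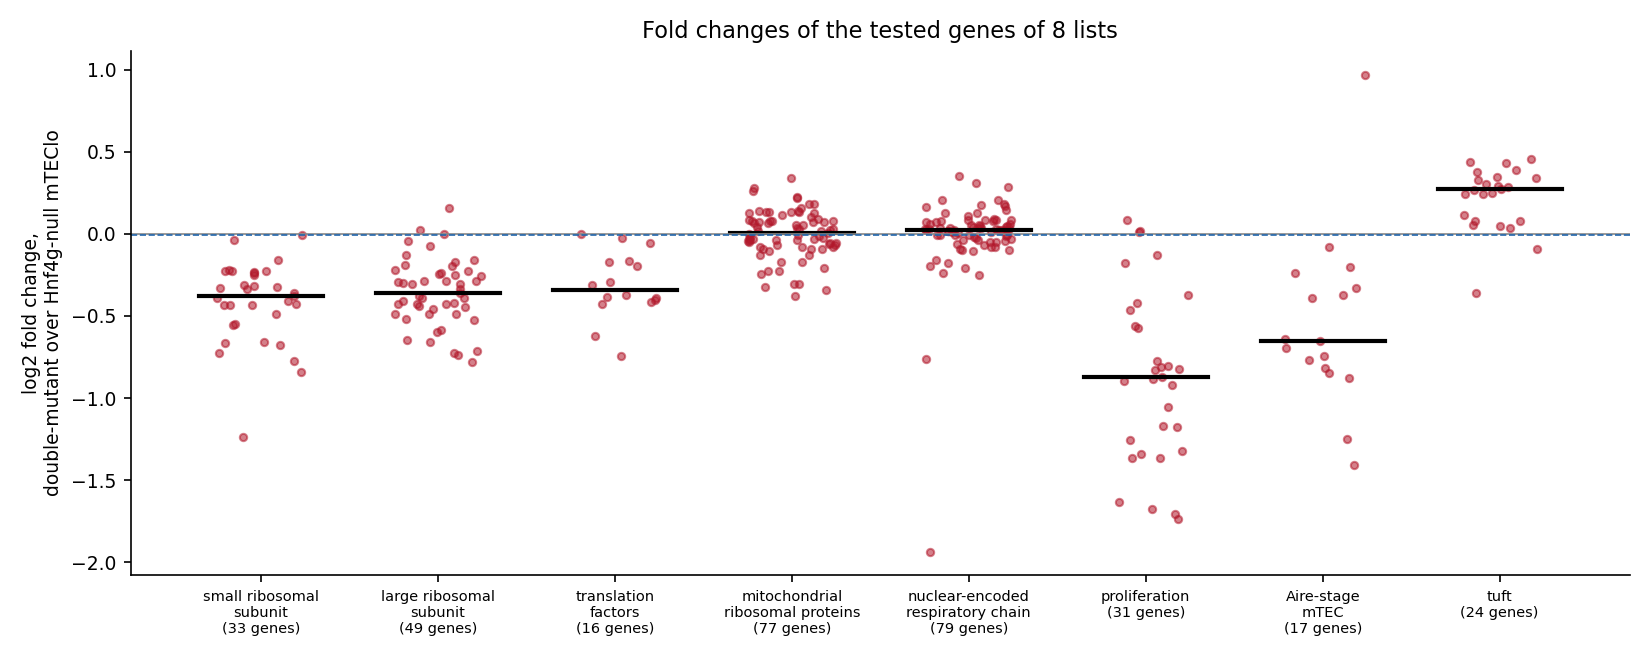
Log2 fold change of double-mutant over Hnf4g-null mTEClo for each tested gene of 8 lists. Points are genes, black bars list medians, the solid grey line 0 and the dashed blue line the median of all genes; the ribosomal subunit lists have medians of -0.38 and -0.36, the mitochondrial ribosomal list 0.01 and the tuft list 0.27.

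The share of all counts that fell in ribosomal protein genes was 1.37, 1.41, 1.45 and 1.38% in double-mutant mTEClo (mean 1.41 ± 0.04% SD), against 1.65, 1.79 and 1.94% in Hnf4g-null mTEClo (mean 1.79 ± 0.15% SD). The groups did not overlap. The exact two-sided permutation p was 0.0571, the smallest that 35 splits of 4 against 3 can give, and 0.286 after Benjamini-Hochberg adjustment over 5 library measures. The share was 1.56 to 1.81% in Hnf4a-removed and 1.55 to 1.64% in control mTEClo. The double-mutant libraries were thus below all 10 other mTEClo libraries. The Hnf4g-null libraries were above all 4 control libraries, but only just, with a lowest value of 1.647% against a highest control value of 1.644%. Their range overlapped that of Hnf4a-removed mTEClo. The share of counts in mitochondrially encoded genes was 1.53 to 1.74% in double-mutant and 1.49 to 1.73% in Hnf4g-null mTEClo (exact permutation p = 0.8).

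**Figure D3:**
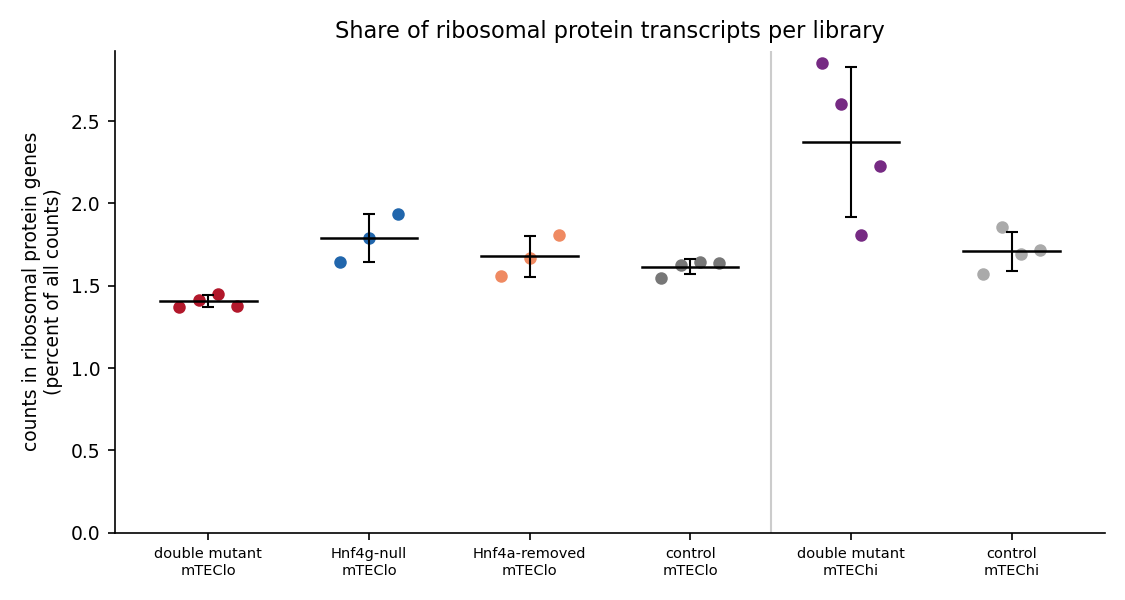
Percent of all counts of a library that fell in the 85 cytosolic ribosomal protein genes. Points are libraries, lines means and error bars SD; double-mutant mTEClo lie at 1.37 to 1.45% and Hnf4g-null mTEClo at 1.65 to 1.94%, while in mTEChi the double mutants lie at 1.81 to 2.85% and the controls at 1.57 to 1.86%.

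In mTEChi the list lay on the other side. There, 81 of 82 ribosomal protein genes had a log2 fold change above 0 in double-mutant against control libraries, with a median of 0.49. Over all 18413 genes tested there, 48.2% lay below 0. None of the 82 was called, while 0.038% of all genes were called higher and 0.635% in either direction. The reference differs, since the mTEChi control kept an allele of each gene, so these values are set side by side and their difference was not tested. In mTEClo with 1 allele of Hnf4g, the median over the list for Hnf4a-removed against control was 0.06, with 20 of 82 below 0. The interaction of Hnf4a removal with Hnf4g genotype had a list median of -0.44, with 78 of 82 below 0, against 49.6% of all genes.

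A list of 16 genes for translation factors and related proteins, chosen after the ribosomal values were seen, held no called gene. The share of all genes called was 0.0107%. All 16 lay below 0, against 51% of all genes, with a median log2 fold change of -0.34. Eef1a1, which brings aminoacyl-tRNA to the ribosome, had 2206, 2546, 2475 and 2109 CPM in double-mutant mTEClo, against 2926, 3264 and 3237 CPM in Hnf4g-null mTEClo. The groups did not overlap (log2 fold change -0.43 ± 0.09, edgeR adjusted p = 0.0993). Tpt1, the translationally controlled tumour protein, had 142, 150.4, 137 and 127 CPM in double mutants, against 285, 236 and 178 CPM in Hnf4g-null libraries (log2 fold change -0.74 ± 0.13, edgeR adjusted p = 0.0508). Eef2, the translocation factor, had a log2 fold change of -0.39 ± 0.11, Eef1b2, a subunit of the exchange factor for Eef1a1, -0.62 ± 0.14, and Pabpc1, the poly(A)-binding protein, -0.31 ± 0.09.

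Genes of the mitochondrial ribosome and of the respiratory chain gave another picture. Of 77 tested mitochondrial ribosomal protein genes, 38 lay below 0, with a median of 0.01. Of 79 nuclear genes of the respiratory chain, 30 lay below 0, with a median of 0.02. Over the 82 cytosolic ribosomal protein genes, the log2 fold change was not related to exon length (Pearson r = -0.03, Spearman rho = -0.12, across genes, which are not independent), and other protein-coding genes with up to 750 bases of exon had a median of -0.04.

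The bases around the annotated start of 7 of these genes are shown since a pyrimidine run there is what the TOP genes are known by, with Serinc3 for comparison. Of the 85 ribosomal protein genes, 64 had an entry. Each line runs from 10 bases before to 20 bases after the first listed start (RefSeq on GRCm38.p6), and capitals mark the longest unbroken run of C or T if it has at least 7 bases. Of the 64 ribosomal protein starts, 34 (53.1%) had such a run overlapping these 30 bases, against 24.5% of all 27025 starts. The windows are, in the order printed, chr10:23787190-23787219 (reverse strand), chr2:32961702-32961731 (forward), chr7:141447641-141447670 (forward), chr2:180257369-180257398 (forward), chrX:37085203-37085232 (reverse), chr9:120127756-120127785 (forward), chr14:75845246-75845275 (forward) and chr2:163645124-163645153 (reverse).
Rps12: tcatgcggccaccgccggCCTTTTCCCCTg
Rpl12: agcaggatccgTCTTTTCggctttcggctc
Rplp2: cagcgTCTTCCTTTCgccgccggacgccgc
Rps21: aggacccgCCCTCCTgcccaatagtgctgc
Rpl39: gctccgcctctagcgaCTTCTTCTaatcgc
Rpsa: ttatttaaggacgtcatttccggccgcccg
Tpt1: cgctgacgacagttccgggggagccgcgga
Serinc3: cgtcctgcgaagggcgggccctgtttccgg

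Rps12, Rplp2, Rpl12, Rps21 and Rpl39 held such a run, and Rpsa, Tpt1 and Serinc3 did not. No match says only that these letters are not in this window, and annotated starts may be off by several bases.

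Outside the translation genes, the lower gene nearest to the threshold was Pla2g3, a secreted phospholipase A2, with 33.2, 30.7, 23.3 and 22.7 CPM in double-mutant mTEClo, against 48.6, 56.7 and 73.6 CPM in Hnf4g-null mTEClo (log2 fold change -1.12 ± 0.19, edgeR adjusted p = 0.0508). On the higher side, 10 genes of the naming rule had edgeR adjusted p-values of 0.0769 to 0.0938. None of them overlapped between the groups, where 5.02% of all genes were higher without overlap. They were chosen by their small p in this comparison, so the lack of overlap is no separate evidence. Pex3, needed for peroxisome membranes, had 335, 373, 384 and 357 CPM in double mutants, against 248 to 251 CPM in the 3 Hnf4g-null libraries (log2 fold change 0.54 ± 0.10). Anxa2, a calcium-dependent membrane-binding protein, had 2389, 2184, 2128 and 2325 CPM in double mutants, against 1610, 1627 and 1738 CPM in Hnf4g-null libraries (0.44 ± 0.09).

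The rest of these 10 included metabolic and membrane genes. Slc25a20, the mitochondrial carrier of acylcarnitines, had 160, 156, 144 and 139 CPM in double-mutant mTEClo, against 99.4, 99.7 and 109 CPM in Hnf4g-null mTEClo (log2 fold change 0.54 ± 0.11). Tspan8, a tetraspanin of epithelial cells, had a log2 fold change of 0.48 ± 0.09, and Man2a1, a mannosidase of the Golgi, 0.60 ± 0.12. Calm2, which encodes calmodulin, the phosphatase gene Dusp14, the organic anion transporter gene Slco3a1, and Cdadc1 and Cables2 had log2 fold changes of 0.47, 0.67, 0.79, 0.51 and 0.54.

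No listed gene of the gut and liver programs was called, where the share of all genes called was 0.0107%, so that a count of 0 says little about these lists. Over all genes, 51% lay below 0. Of 28 tested brush border genes 21 lay below 0 (median log2 fold change -0.28), of 21 lipid handling genes 13 (median -0.17), of 24 intestinal transporters 17 (median -0.12) and of 28 hepatocyte plasma proteins 16 (median -0.07). Of 22 hepatocyte metabolism genes 14 lay below 0 (median -0.67), of 25 xenobiotic metabolism genes 17 (median -0.14) and of 19 gut and liver transcription factors 11 (median -0.09). The smallest adjusted p in these 7 lists was 0.185 (edgeR, Benjamini-Hochberg).

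**Figure D4:**
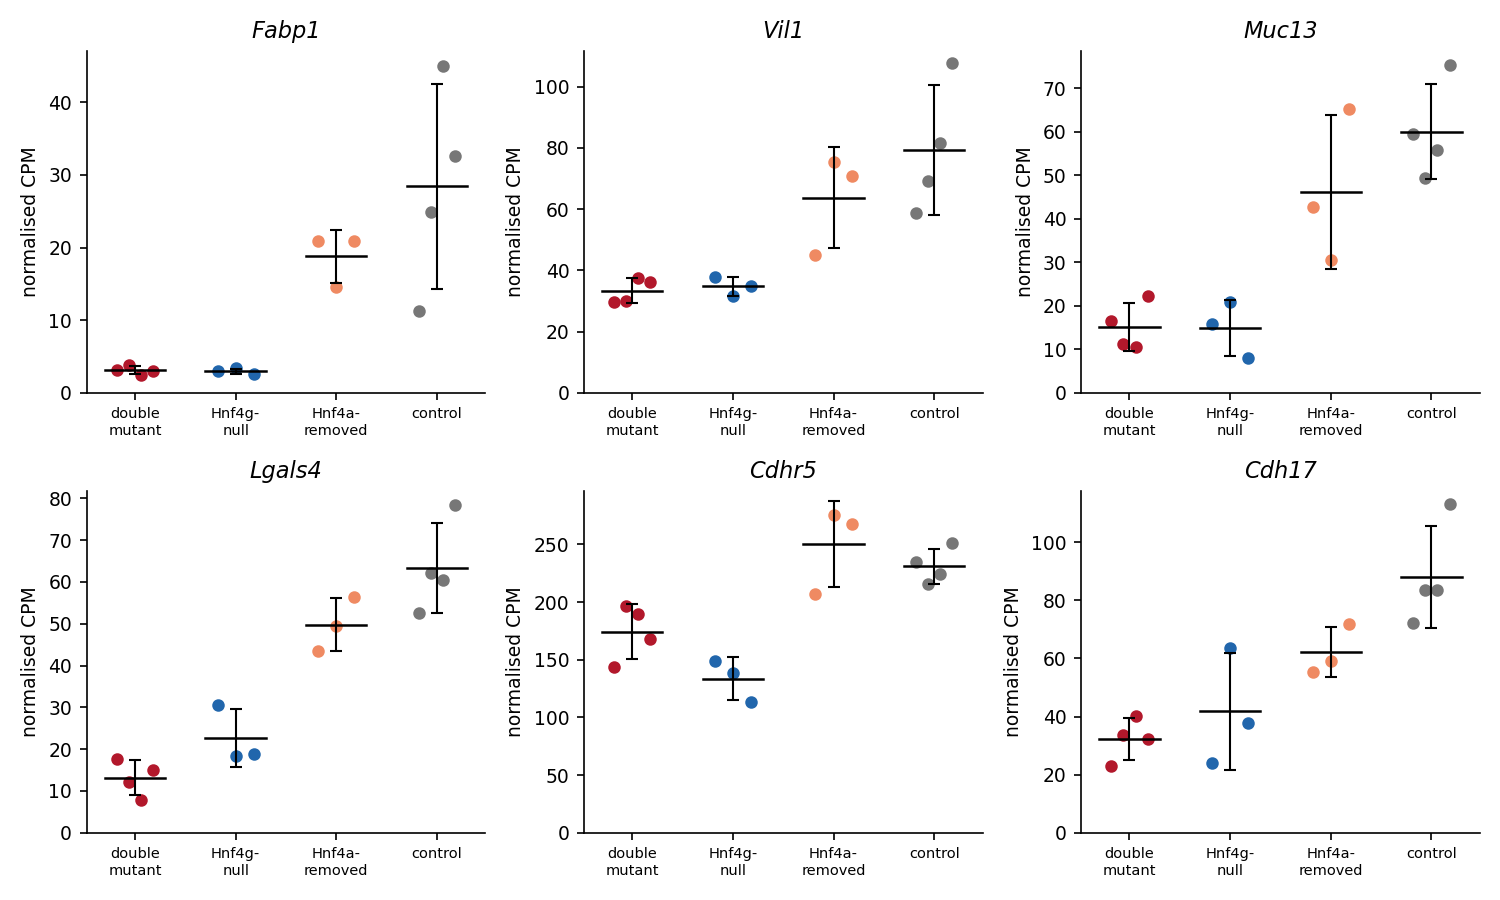
Normalised CPM of 6 enterocyte genes in each mTEClo library of the 4 genotypes. Points are libraries, lines means and error bars SD; Fabp1 lies at 2.51 to 3.83 CPM in double mutants and 2.67 to 3.36 CPM in Hnf4g-null libraries, with means of 18.8 CPM in Hnf4a-removed and 28.4 CPM in control libraries.

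The genes of this plot and the next paragraph were picked after their values were seen. Fabp1, the fatty acid-binding protein of enterocytes and hepatocytes, had 3.15, 3.83, 2.51 and 2.97 CPM in double-mutant mTEClo, against 2.97, 3.36 and 2.67 CPM in Hnf4g-null mTEClo. Both groups lay far below the Hnf4a-removed (mean 18.8 CPM) and control (mean 28.4 CPM) libraries, and they did not differ beyond their spread (log2 fold change 0.06 ± 0.40, edgeR adjusted p = 0.98). Vil1, the villin of microvilli, had 29.7, 30.1, 37.6 and 36.1 CPM in double mutants, against 37.8, 31.7 and 35.1 CPM in Hnf4g-null libraries (log2 fold change -0.06 ± 0.21). It averaged 63.8 CPM in Hnf4a-removed and 79.3 CPM in control libraries.

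Muc13, a transmembrane mucin, had 16.6, 11.3, 10.5 and 22.3 CPM in double-mutant mTEClo, against 15.9, 20.9 and 7.99 CPM in Hnf4g-null mTEClo, and 60.1 CPM on average in control. Lgals4, an intestinal galectin, was lower without overlap, with 7.94 to 17.5 CPM in double mutants, against 30.6, 18.4 and 18.9 CPM in Hnf4g-null libraries, but it was not called (log2 fold change -0.78 ± 0.24, edgeR adjusted p = 0.266). Cdhr5, which links the tips of microvilli, had the opposite sign, with 144, 197, 189 and 168 CPM in double mutants, against 149, 138 and 114 CPM in Hnf4g-null libraries (log2 fold change 0.38 ± 0.13, edgeR adjusted p = 0.319). In mTEChi all 5 of these genes, Fabp1, Vil1, Muc13, Lgals4 and Cdhr5, were called lower in double-mutant against control libraries, with log2 fold changes of -1.84 to -2.37. The mTEChi comparison removes both genes at once, so the contrasts differ and the difference between them was not tested.

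Among liver genes, Hal was not called, but it was called under 4 of 16 alternatives, 1 of them a single library left out, Hnf4g-null replicate 1. Hal, histidine ammonia-lyase, was lower without overlap, with 102, 107, 125 and 106 CPM in double mutants, against 128, 213 and 170 CPM in Hnf4g-null libraries (log2 fold change -0.63 ± 0.15, edgeR adjusted p = 0.185; 0.0295 without replicate 1).

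A signature of the wild-type entero-hepato gate, which the mutant libraries had no part in choosing, had 2020 tested genes. A single one of them was called, Serinc3, on the higher side. The share of all genes called was 0.0107%, so the counts called say little about the signature. The median log2 fold change was -0.05 with 1125 of 2020 below 0, against -0.01 and 51% of all genes. The opposite set, genes lower in the gate than outside it, had a median of -0.07 with 1228 of 2186 below 0. The small shift of the 2020 genes was thus not particular to the signature. For the 766 genes over a log2 fold change of 2 in the gate, the median was -0.13, and none was called. Serinc3 itself was higher in the entero-hepato gate than outside it in wild-type thymus (log2 fold change 1.37, edgeR adjusted p = 8.1e-05), and Rps12 was lower there (-1.21, edgeR adjusted p = 4.9e-05), where 44.5% of genes were called in either direction.

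Genes of the Aire stage spread widely within the Hnf4g-null group. For Aire, double-mutant libraries had 182, 146, 228 and 213 CPM, against 169, 719 and 644 CPM in Hnf4g-null libraries (log2 fold change -1.41 ± 0.41, edgeR adjusted p = 0.235). The groups overlapped only through Hnf4g-null replicate 1. The class II gene H2-Ab1 followed the same order, with 2330, 2276, 2595 and 2336 CPM in double mutants, against 1413, 4541 and 5193 CPM in Hnf4g-null libraries. Of 17 Aire-stage genes 16 lay below 0 (median -0.65), and none was called (0.0107% of all genes). Without Hnf4g-null replicate 1, 6 of them were among the 119 genes called of 19684 tested, and their median was -0.97. That library was singled out by its low Aire, so a wider difference in these genes without it is no separate evidence. Hnf4a-removed replicate 1 and control replicate 1 also had the lowest Aire of their groups, at 187 and 207 CPM, and leaving out these 3 libraries gave 26 higher and 229 lower calls of 19369 genes tested. Of these 255 calls, 27 were ribosomal protein genes and 9 Aire-stage genes. The 3 libraries were chosen after seeing the data and share low Aire, so the Aire-stage calls among these carry the same limit.

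No proliferation gene and no tuft gene was called. The share of all genes called was 0.0107%, so a count of 0 says little about these lists. Of 31 proliferation genes 28 lay below 0, against 51% of all genes, with a median log2 fold change of -0.87, and 5 were lower without overlap, against 4.03% of all genes. Their summed level was 307, 329, 262 and 309 CPM in double-mutant mTEClo, against 306, 531 and 551 CPM in Hnf4g-null mTEClo, so the groups overlapped through Hnf4g-null replicate 1. Without that library the median was -1.12 and 1 of the list was called. Mcm3, a part of the replicative helicase, had 13.7, 7.52, 5.16 and 10.4 CPM in double-mutant mTEClo, against 14.1, 21.4 and 30.3 CPM in Hnf4g-null mTEClo, and Top2a, a topoisomerase of dividing cells, had 10.3, 21.7, 21.3 and 13.2 CPM in double mutants, against 29.9, 29.4 and 29.0 CPM in Hnf4g-null libraries. These are 2 of the 5 genes without overlap, and their edgeR adjusted p-values were 0.219 and 0.285. Ribosomal protein genes, proliferation genes and Aire-stage genes were thus all lower at the median, and their part in each other's values was not tested.

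Of 24 tuft genes, which mark mTECs resembling the chemosensory tuft cells of gut and airway, 22 lay above 0, with a median of 0.27. None was called (0.0107% of all genes). On the higher side, 14 had an unadjusted p under 0.05 (4.58% of all genes), and 12 did not overlap (5.02% of all genes). For Hnf4a-removed against control mTEClo the list median was 0.19, with 3 of 24 below 0. The interaction had a list median of 0.08, with 8 of 24 below 0. In double-mutant against control mTEChi the list median was 0.15, with 5 of 24 below 0. Avil, which encodes the actin-binding protein advillin, had 3325, 3290, 3676 and 3441 CPM in double-mutant mTEClo, against 2682, 2378 and 2581 CPM in Hnf4g-null mTEClo (log2 fold change 0.43 ± 0.09, edgeR adjusted p = 0.113). The kinase gene Bmx had 1224, 1321, 1362 and 1358 CPM in double mutants, against 1035, 942 and 937 CPM in Hnf4g-null libraries. The channel gene Trpm5 had 2424, 2622, 2680 and 2477 CPM in double mutants, against 2397, 2008 and 1933 CPM in Hnf4g-null libraries. Pou2f3, the transcription factor of the tuft lineage, had a log2 fold change of 0.27 ± 0.10, and in all 4 genes the groups did not overlap. In bulk libraries, fewer cells of a type and less RNA per cell cannot be told apart, nor can more of either.

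**Figure D5:**
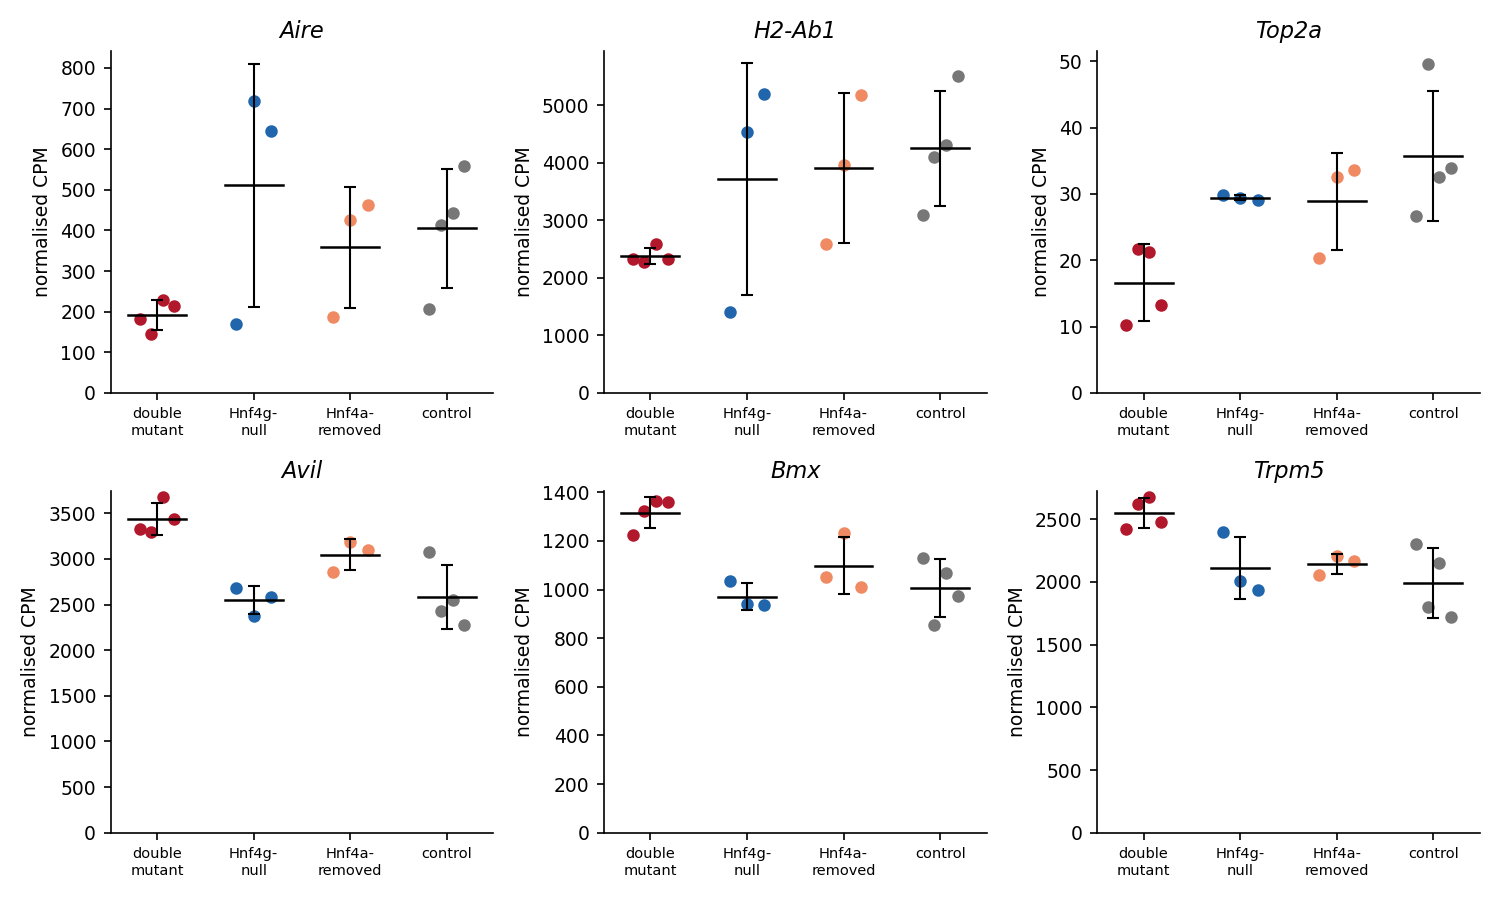
Normalised CPM of Aire, the class II gene H2-Ab1, the proliferation gene Top2a and the tuft genes Avil, Bmx and Trpm5 in each mTEClo library of the 4 genotypes. Points are libraries, lines means and error bars SD; Aire lies at 146 to 228 CPM in double mutants and at 169, 719 and 644 CPM in the Hnf4g-null libraries, while Avil lies at 3290 to 3676 CPM in double mutants and 2378 to 2682 CPM in Hnf4g-null libraries.

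Markers of other cells gave no called gene. The share of all genes called was 0.0107%, so a count of 0 says little about these cells. Of 8 tested thymocyte markers 7 lay below 0 (median log2 fold change -0.73), and the summed level of all 16 was 68.2, 57.2, 62.1 and 64.2 CPM in double-mutant libraries, against 51.2, 79.0 and 90.0 CPM in Hnf4g-null libraries. Of 13 tested fibroblast and pericyte markers 12 lay below 0 (median -0.51), and the summed level of all 14 was 105, 143, 156 and 174 CPM in double-mutant libraries, against 133.5, 221 and 252 CPM in Hnf4g-null libraries. In both lists the groups overlapped only through Hnf4g-null replicate 1, the first of the 3 values.

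Of 10 B cell markers 7 lay below 0 (median log2 fold change -0.41), and their summed level was 366 to 404 CPM in double-mutant and 291 to 447 CPM in Hnf4g-null libraries. Of 12 tested myeloid and dendritic markers 7 lay below 0 (median -0.17), with a summed level of 309 to 658 CPM in double-mutant and 283 to 763 CPM in Hnf4g-null libraries. Of 10 tested endothelial markers 5 lay below 0 (median 0.07), with 228 to 280.0 CPM in double-mutant and 179 to 277 CPM in Hnf4g-null libraries. The part of these cells in the lower values of the ribosomal protein, Aire-stage and proliferation genes was not tested.

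No gene was called in the interaction, which asks whether Hnf4a removal acted differently with Hnf4g absent than with 1 allele of it (0 of 18775 genes with edgeR, 1473 at an unadjusted p under 0.05, and 100 with DESeq2). The genes nearest to the threshold were Sh3d19, Uhmk1 and Itgb8 on the higher side and Rps12, Rplp1 and Rpl12 on the lower, with edgeR adjusted p-values of 0.106 to 0.146. Sh3d19 had 29.7, 26.8, 30.4 and 33.6 CPM in double-mutant mTEClo, against 20.4, 18.1 and 18.2 CPM in Hnf4g-null mTEClo, and averaged 24.6 CPM in Hnf4a-removed and 39.8 CPM in control libraries. Rplp1 averaged 275 CPM in Hnf4a-removed and 231 CPM in control libraries, the opposite order from the Hnf4g-null background.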

How the data were processed

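RNA of 1000 sorted cells per library was reverse transcribed from oligo(dT), amplified, tagged with Tn5 and read as pairs of 38 bases, per the labels' protocols. The authors deposited read counts per gene, not normalised; their processing notes name STAR 2.7.3a, featureCounts and mm10, and no source used here names the annotation. There were no molecular identifiers, so PCR copies count as reads. Positions are from GENCODE M21 (GRCm38). Columns were matched to samples by title, and replicate pairs differed by more than sampling noise.

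The 14 mTEClo libraries were fitted together, so that all share 1 estimate of spread, with edgeR 4.0.16 (R 4.3.3; quasi-likelihood test after TMM scaling; filterByExpr with a minimum count of 10 and a minimum total of 15). Genes were called at a Benjamini-Hochberg adjusted p under 0.05 over all genes tested. The 8 mTEChi libraries had a fit of their own. Alternatives were RLE scaling, DESeq2 1.42.0, limma-voom 3.58.1, other filters, the 7 libraries alone, the replicate number as a block, and each library left out. The test was checked on simulated counts.

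Members and gene lists were chosen with earlier results of these data known. Genes named were the targeted genes, called genes, the 10 nearest per direction with at least 10 CPM, abundant list members, tested genes within 1 Mb of Hnf4a and the nearest interaction genes. Others were picked after their values were seen.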

Additional observations from a re-analysis of the deposited data

Results flagged for a closer look

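Within the 4 double-mutant libraries, 4 of 84 measures had 1 library far from the other 3, about what chance gives (1 in 20). Rpl36 was at 33.3 CPM in replicate 4, against 41.6 to 42.6 CPM in the others. Ceacam20, a brush border gene, was at 0.397 CPM in replicate 3, against 1.18 to 1.23 CPM in the others. Mki67, a marker of dividing cells, was at 8.41 CPM in replicate 2, against 5.34 to 5.82 CPM. The share of counts in the gene model Gm10800 was 1.06% in replicate 1, against 0.748 to 0.762%.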

How the results depend on the processing

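Serinc3 was called under every alternative run. The number of higher calls was 1 in the report, 86 with DESeq2, 111 with no filter on low counts, 26 without the 3 libraries numbered 1 outside the double mutants (chosen after seeing the data), and 1 to 4 when a library was left out. The number of lower calls was 1 in the report, 12 with RLE scaling (10 ribosomal protein genes), 111 with DESeq2, 5 with limma-voom (all ribosomal protein genes), 405 with no filter, 15 with a minimum count of 30, 0 in the fit of the 7 libraries, 6 with the replicate block, 10 with TMM factors from other than ribosomal protein genes (chosen after seeing the data), 229 without the libraries numbered 1, and 0 to 115 when a library was left out. It was 115 without Hnf4g-null replicate 1, 2 without replicate 3, 7 without double-mutant replicate 2 and 0 without each of the others. Of the 405 lower calls with no filter, 23 were ribosomal protein genes. Deviations from the group means correlated at 0.0921, 0.0075 and 0.0083 between double-mutant and Hnf4g-null libraries of equal number. Between unequal numbers the correlations were -0.070 to 0.053, so the pair numbered 1 had the highest. The labels do not say whether libraries of equal number share a day or a sort, and this was not tested. Interaction calls were 0 in the report, 100 with DESeq2, 331 with no filter, 14 without the libraries numbered 1, and 0 to 8 when a library was left out. The median of the ribosomal protein genes was -0.30 to -0.41 when a library was left out, the smallest without Hnf4g-null replicate 3, and that of the signature was -0.13 with the stricter signature. Of 1261 values of 79 named genes under alternatives, 167 newly passed the threshold, 5 (all Rps12) no longer did, and 24 changed sign without passing. The causes were not tested.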
